A study of Mus musculus with 24 samples.

Results

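Active stress-coping mice were compared with undefeated control mice after a saline injection, gene by gene, in the prefrontal cortex (PFC). The libraries were chosen by their labels alone: the 4 saline libraries of the active coping strategy (AS) and the 4 saline control libraries, 8 of the 24 PFC libraries. The labels number the groups of defeated mice and do not name a coping style. Which number stands for AS was taken from the description of the comparison, not from the labels. All animals were adult male C57BL/6 mice of 10 to 12 weeks. AS mice had gone through chronic social defeat stress (CSDS) by aggressive CD1 males on 30 consecutive days, and the controls were undefeated mice kept alone for 5 days. The AS phenotype came from hierarchical clustering of behavior recorded on day 29 of CSDS. The other groups were mice of the passive coping strategy (PS) on saline, and control, AS and PS mice given dexamethasone (DEX), a synthetic glucocorticoid, at 2 mg/kg. Defeated mice were injected 24 h after the last defeat. In all mice tissue was taken 6 h after the injection, each library came from 1 mouse and all 6 groups held 4. The repeated defeats and the life beside a CD1 male came together, so their parts cannot be told apart.

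The PFC weighs behavioral choices under threat, and chronic social defeat is a standard way to make mice differ in how they cope with an aggressor. A cortical block holds glutamatergic pyramidal neurons and GABAergic interneurons, together with astrocytes, myelin-forming oligodendrocytes, microglia and vessels, and with the meninges where the surface is kept. Ribosomal protein genes and mitochondrial genes have many near-identical copies elsewhere in the mouse genome, most of them processed pseudogenes made by retrotransposition or, for mitochondrial DNA, by insertion into a chromosome. In such bulk tissue, fewer cells of a type and less RNA per cell cannot be told apart.

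Reads per library, recovered from the deposited normalized counts, ran from 21121869 to 24753489 in the 4 control libraries and from 23481722 to 40268349 in the 4 AS libraries. The AS libraries were thus deeper, with a median of 34242532 reads against 22869703. Cortical identity was plain, since Slc17a7, the vesicular glutamate transporter of cortical pyramidal neurons, had a mean of 48237 normalized counts in controls and 45626 in AS mice. Camk2a, a kinase of the same neurons, had 122750 and 138310. A pair of the 8 libraries stood apart in genes of the olfactory bulb. Cdhr1, a cadherin of mitral cells, measured 68.8, 119, 97.3 and 2653 normalized counts in control mice 106, 107, 109 and 117, and 197, 974, 146 and 64.7 in AS mice 8, 14, 40 and 44. Th, the tyrosine hydroxylase of bulb interneurons, was likewise highest in control mouse 117, at 852, and in AS mouse 14, at 303. One such library lay in each group, and the DEGs and the main gene lists are also given without both.

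**Figure D1:**
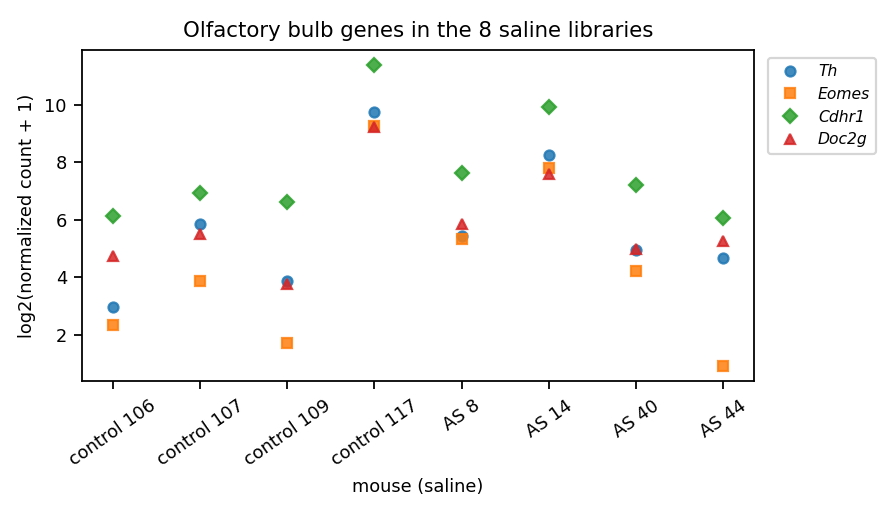
Olfactory bulb genes in the 8 saline libraries, with the mouse on the x axis and log2(normalized count + 1) on the y axis, 1 point per library and gene. All 4 genes are highest in control mouse 117 and next in AS mouse 14, where Cdhr1 reaches 2653 and 974 normalized counts.

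Between AS and control mice on saline, 22 of 14074 genes were differentially expressed genes (DEGs) at a Benjamini-Hochberg adjusted p (padj) under 0.1 in limma. Of these, 7 rose in AS mice, 0.0497% of the genes tested, and 15 fell, 0.107%. The falls were mostly gene copies: 13 were annotated pseudogenes, 1 was the ribosomal protein S27 retrogene Rps27rt, and 1 was the protein-coding gene Eme2. The rises were Kctd4, Lpl, Etnk2, S100a6 and Sat1, together with the long noncoding RNA Gm4876 and the small nuclear RNA gene Gm25982. In all 22 the 4 AS values lay wholly outside the range of the 4 control values, which 3.45% of all genes did upward and 3.06% downward. The median log2 fold change over all genes was 0.0031. With every library thinned to the depth of the shallowest, 21 genes were called, 17 of them among the 22. Without control mouse 117 and AS mouse 14, 7 genes were called. These were Gm13340, Rpl34-ps1, Gm8129, Rpl35a-ps2, Rpl19-ps7 and Lpl from the 22, and Ptgfrn, which was named after its values were seen and differed by -0.53 (log2).

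**Figure D2:**
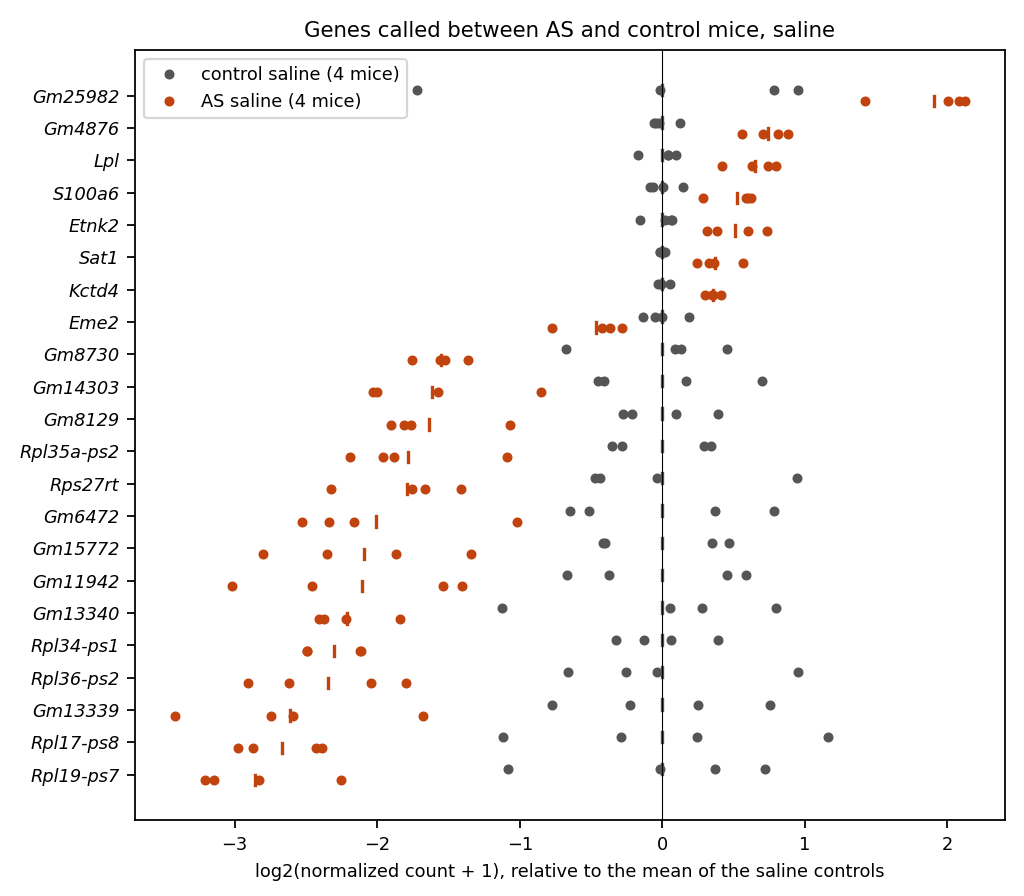
The 22 DEGs between AS and control mice on saline, with log2(normalized count + 1) relative to the control mean on the x axis, 1 point per mouse and short vertical bars at the group means. AS points lie right of all control points for 7 genes and left of them for 15, and the copies of ribosomal protein and mitochondrial genes shifted by 1.55 to 2.86 log2 units.

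The copies are shown here beside the protein-coding or mitochondrial gene each resembles most. A read of ordinary length can fit both, and the values of the copies rest on how such reads were assigned. Each pair holds the same stretch of 240 bases, counted from the first base of the coding sequence of the matched gene, from the GENCODE transcripts on GRCm38, read 5′ to 3′. Capitals mark the bases at which the copy and its match differ.
Rpl34-ps1: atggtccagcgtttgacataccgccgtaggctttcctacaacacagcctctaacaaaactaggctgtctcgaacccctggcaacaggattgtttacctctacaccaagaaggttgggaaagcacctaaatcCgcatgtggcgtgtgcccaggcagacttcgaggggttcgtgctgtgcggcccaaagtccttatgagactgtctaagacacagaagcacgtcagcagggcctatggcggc
Rpl34: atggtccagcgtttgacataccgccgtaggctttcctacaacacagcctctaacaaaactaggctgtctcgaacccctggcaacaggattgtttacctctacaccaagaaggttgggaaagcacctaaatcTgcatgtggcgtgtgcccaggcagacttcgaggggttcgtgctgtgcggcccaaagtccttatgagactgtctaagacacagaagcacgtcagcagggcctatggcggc
Rpl35a-ps2: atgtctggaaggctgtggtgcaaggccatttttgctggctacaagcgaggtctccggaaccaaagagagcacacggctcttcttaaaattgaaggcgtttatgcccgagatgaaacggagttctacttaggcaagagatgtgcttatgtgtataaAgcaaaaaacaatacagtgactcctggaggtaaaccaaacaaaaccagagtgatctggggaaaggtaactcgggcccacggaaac
Rpl35a: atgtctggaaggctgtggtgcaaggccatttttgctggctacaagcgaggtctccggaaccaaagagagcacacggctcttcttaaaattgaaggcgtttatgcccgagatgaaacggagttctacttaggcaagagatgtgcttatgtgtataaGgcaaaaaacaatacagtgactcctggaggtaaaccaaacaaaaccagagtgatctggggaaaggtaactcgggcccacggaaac
Gm13340: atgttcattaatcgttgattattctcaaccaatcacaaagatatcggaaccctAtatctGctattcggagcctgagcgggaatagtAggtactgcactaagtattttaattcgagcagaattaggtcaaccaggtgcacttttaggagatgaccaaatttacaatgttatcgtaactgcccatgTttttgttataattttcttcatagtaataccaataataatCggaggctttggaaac
mt-Co1: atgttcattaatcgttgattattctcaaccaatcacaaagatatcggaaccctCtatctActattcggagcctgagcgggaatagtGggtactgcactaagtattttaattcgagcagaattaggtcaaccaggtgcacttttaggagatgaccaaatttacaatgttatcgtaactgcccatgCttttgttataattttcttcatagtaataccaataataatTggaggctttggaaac

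Rpl34-ps1 lies at chr6:71124610-71124963 on the plus strand and differs from Rpl34 at 1 base of this stretch. Rpl35a-ps2 lies at chr1:181241988-181242320 on the minus strand and also differs from Rpl35a at 1 base. Gm13340, at chr2:22588103-22589647 on the minus strand, is a nuclear copy of the mitochondrial gene for cytochrome c oxidase subunit I, mt-Co1, and differs from it at 5 bases. Over whole transcripts, all 14 copies that fell had a match, at 96.6% to 100% identity with a median of 99.4%. Only transcripts of protein-coding and mitochondrial genes were searched, so whether other pseudogene copies are closer was not tested.

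The copy with the smallest p was Gm13340. It measured 458, 1037, 1212 and 1736 normalized counts in control mice 106, 107, 109 and 117, against 214, 188, 193 and 278 in AS mice 8, 14, 40 and 44. The control mice were spread widely, yet the lowest of them was above the highest AS mouse. The means were 1111 ± 527 and 218 ± 41.6 (SD, n = 4 each), a log2 fold change of -2.21 ± 0.27 (SE) with padj = 0.000357 in limma. Without mice 117 and 14 the log2 fold change was -1.88. Gm13339, the neighboring copy of mt-Nd2 at chr2:22590024-22590533, fell from 656 ± 289 to 109 ± 56.7 normalized counts (SD, n = 4 each), by 2.61 ± 0.43 on the log2 scale (padj = 0.00531, limma). It was no longer called without both libraries.

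Rpl34-ps1, a processed copy of the gene for ribosomal protein L34, measured 31.05, 35.7, 40.7 and 51.7 normalized counts in the controls and 8.27, 8.20, 6.13 and 6.12 in AS mice. Its AS values were tightly grouped and far below every control. The log2 fold change was -2.31 ± 0.31 (padj = 0.000718, limma). Rpl35a-ps2, a copy of Rpl35a, measured 63.4, 66.4, 99.6 and 103 in controls and 21.3, 20.1, 17.02 and 37.6 in AS mice, a log2 fold change of -1.78 ± 0.26 (padj = 0.00171, limma). Gm8129, a copy of Rpl38, measured 78.3, 75.0, 97.3 and 119.7 in controls and 23.6, 26.1, 25.2 and 42.9 in AS mice, a log2 fold change of -1.64 ± 0.22 (padj = 0.000718, limma). In both genes AS mouse 44 was the highest of its group and remained under the lowest control.

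The deepest falls were those of Rpl19-ps7 and Rpl17-ps8, copies of Rpl19 and Rpl17. Rpl19-ps7 fell from 54.8 ± 25.3 to 6.24 ± 2.37 normalized counts and Rpl17-ps8 from 42.7 ± 28.5 to 4.96 ± 1.23 (SD, n = 4 each), with log2 fold changes of -2.86 and -2.67 (padj = 0.00187 and 0.00419, limma). Gm14303 is identical to Rps29 over 171 bases and fell from 375 ± 148 to 122 ± 51.4 normalized counts. Rps27rt is identical to Rps27 over 341 bases, lies inside the gene Osbpl10 on the opposite strand, and fell from 116 ± 61.2 to 30.8 ± 7.85. The remaining copies, Gm8730 (Rplp0), Gm6472 (Rps7), Gm15772 (Rpl26), Rpl36-ps2 (Rpl36) and Gm11942 (Gm10073), had log2 fold changes between -2.34 and -1.55. Leaving out each of the 8 libraries in turn kept 10 of the 22 calls every time, 9 of them copies and the tenth Kctd4. Gm8730 lost its call without control mouse 109 (padj = 0.123, limma), and Gm6472, Gm15772, Rpl36-ps2 and Gm11942 lost theirs in 5 to 7 of the 8 omissions, with padj up to 0.339 (limma).

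The matched genes mostly had small positive differences. Of the 13 matched genes in the table, 12 had a positive log2 fold change, and 0 of the 13 passed the test. Over all genes for cytosolic ribosomal proteins, 80 of 82 (97.6%) were higher, and 21 of 31 mitochondrially encoded genes were. The positive sign is thus not particular to the genes that the copies resemble. Rpl34 measured 1642 ± 227 normalized counts in controls and 1822 ± 297 in AS mice (SD, n = 4 each), a log2 fold change of 0.15 (padj = 0.714, limma). Rpl35a measured 2395 and 2936, a log2 fold change of 0.29. Rps29 was the exception, at 2516 and 2210 and a log2 fold change of -0.20 (padj = 0.630, limma). Whether reads moved between a copy and its match was not tested, since the deposited counts carry no information on multiply mapped reads.

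The saline controls also stood above the other groups in these copies. For 13 of the 15 falls, all 4 saline control values exceeded those of all 20 other libraries, against 0.213% of all genes, and the exceptions were Rpl17-ps8 and Eme2. The mean over the 14 copies, on the log2 scale relative to the saline control mean, ran from -0.58 to 0.44 in saline controls and from -2.36 to -1.64 in AS mice on saline. It ran from -2.39 to -1.66 in DEX controls, which had not been defeated, and from -2.07 to -1.24 in AS mice on DEX. In PS mice it ran from -2.68 to -2.45 on saline and from -3.09 to -2.27 on DEX. The undefeated DEX controls thus lay with the defeated mice and apart from the saline controls. The sequencing run and read length of each library are not given in the sources used here, so a technical difference between the saline controls and the other libraries was not tested. These values were used in choosing the copies for the saline controls and the AS saline mice, and for those groups they are a description. The copies were chosen with high saline controls, which are also the reference for the PS and DEX groups. Comparisons with those groups are thus a description too. The 0.213% is over all genes, which were not chosen in this way, and is not a like background.

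**Figure D3:**
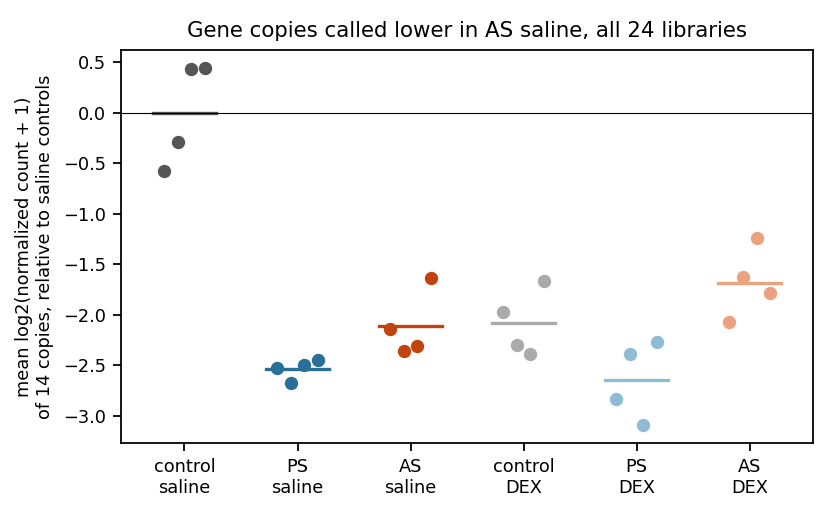
Mean log2(normalized count + 1) of the 14 copies called lower in AS mice on saline, relative to the saline control mean, for each of the 24 libraries by group, with horizontal bars at group means. Only the saline controls lie near 0, at -0.58 to 0.44, and the other 20 libraries lie between -3.09 and -1.24.

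Kctd4, which encodes a protein with a potassium channel tetramerization domain, had the smallest p of the rises. It measured 678, 687, 718 and 687 normalized counts in the controls and 883, 885, 854 and 922 in AS mice, so the groups were narrow and far apart. The means were 693 ± 17.9 and 886 ± 27.6 (SD, n = 4 each), a log2 fold change of 0.36 ± 0.06 (padj = 0.0169, limma). The gene lies at chr14:75955009-75966206 on the plus strand inside Gtf2f2, which runs the other way and had a log2 fold change of 0.03. PS mice on saline had a mean of 921.5, and AS minus PS was -0.05 (95% interval -0.19 to 0.08). DEX controls stood at 684 and AS mice on DEX at 751, a log2 fold change of 0.13 (padj = 0.380, limma).

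Lpl, the lipoprotein lipase that releases fatty acids from circulating triglycerides, lies at chr8:68880491-68907448 and was the largest rise among the protein-coding DEGs. It measured 252, 304, 292 and 292 normalized counts in the controls and 495, 382, 477 and 442 in AS mice. Every AS mouse exceeded every control. The means were 285 ± 22.5 and 449 ± 49.8 (SD, n = 4 each), 1.57-fold, and the log2 fold change was 0.65 ± 0.12 (padj = 0.0174, limma). It was 0.74 without mice 117 and 14 and kept its call. The call was lost without control mouse 106 (padj = 0.101), AS mouse 8 (padj = 0.114) or AS mouse 40 (padj = 0.106, limma), with log2 fold changes of 0.59, 0.60 and 0.62. PS mice on saline averaged 425, and AS minus PS was 0.07 (95% interval -0.18 to 0.32).

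The other protein-coding rises were closer to the threshold. Etnk2, an ethanolamine kinase of phospholipid synthesis at chr1:133363572-133380336, measured 404, 406, 392 and 346 normalized counts in controls and 642, 505, 588 and 481 in AS mice (log2 fold change 0.51 ± 0.11, padj = 0.0812, limma). Sat1, the spermidine and spermine acetyltransferase of polyamine breakdown at chrX:155213132-155216449, measured 736, 719, 719.6 and 734 in controls and 912, 859, 935 and 1076 in AS mice. Its controls were tightly grouped, with an SD of 8.83, and its log2 fold change was 0.37 ± 0.08 (padj = 0.0941, limma). S100a6, a small calcium-binding protein encoded at chr3:90612882-90624181, measured 343, 293, 296 and 312 in controls and 466, 379, 478 and 471 in AS mice (log2 fold change 0.52 ± 0.12, padj = 0.0941, limma). AS mouse 14 was the lowest of its group and still above all controls. Of the 8 omissions of a library, the call was kept in 2 for Etnk2 and in 1 each for Sat1 and S100a6, with padj up to 0.261, 0.250 and 0.339 (limma). None of these genes was called without mice 117 and 14.

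Gm4876, a long noncoding RNA gene at chr6:17065010-17171833, measured 59.4, 67.6, 59.97 and 61.05 normalized counts in controls and 102, 109.6, 115 and 91.8 in AS mice. Its log2 fold change was 0.74 ± 0.15 (padj = 0.0498, limma), and the saline controls lay below all 20 other libraries, against 0.178% of all genes. Gm4876 was called with low saline controls and the other genes were not chosen so, which makes this a description. Means in PS saline, DEX control and AS DEX mice were 105, 100.5 and 101. Gm25982, a small nuclear RNA gene inside the noncoding gene Gm16008, was low everywhere, at 5.40, 0, 2.26 and 4.70 in controls and 12.99, 13.4, 12.2 and 7.87 in AS mice (padj = 0.088, limma). Eme2, a partner of the Mus81 nuclease at chr17:24888486-24895087, fell from 272 ± 26.5 to 198 ± 28.2 normalized counts (SD, n = 4 each), by 0.46 ± 0.10 on the log2 scale (padj = 0.088, limma). It overlaps Spsb3 and Mapk8ip3, and how reads in the shared stretches were counted is not given in the sources used here. Gm4876, Gm25982 and Eme2 kept their calls in 2, 3 and 3 of the 8 omissions, and none was called without mice 117 and 14.

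**Figure D4:**
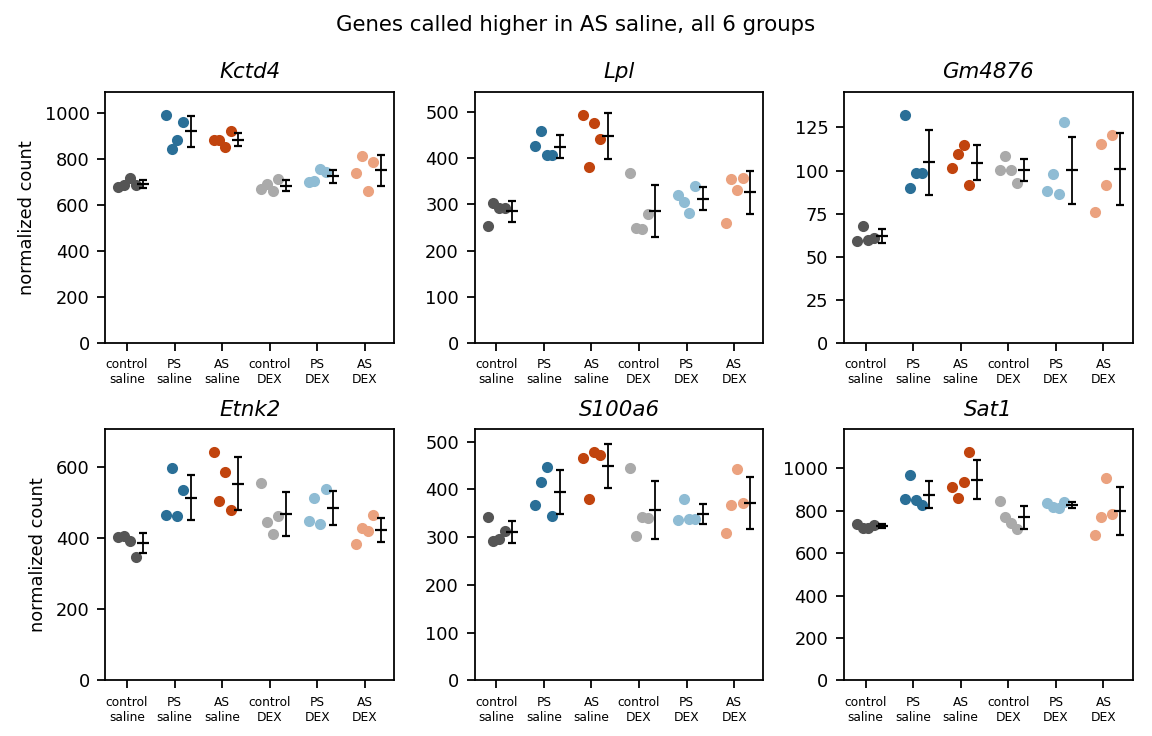
Normalized counts of 6 genes called higher in AS mice on saline, in the 6 groups, with 1 point per mouse and bars for the group mean ± SD. Lpl and Kctd4 are high in both defeated saline groups, at group means of 425 and 449 and of 921.5 and 886, whereas Gm4876 is low in the saline controls alone, at 62.0.

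The 10 genes that followed by p were not DEGs, with padj from 0.101 to 0.150 (limma). Among them were several genes of neurons and their contacts with lower AS values. Lynx1, a brake on nicotinic acetylcholine receptors, had means of 9242 ± 789 and 6690 ± 504 normalized counts in controls and AS mice (SD, n = 4 each), a log2 fold change of -0.47. Cntnap1, an axonal protein of the paranodal junction, had 8969 and 7065 (-0.34), Sdk2, a synaptic adhesion protein, 901 and 590.3 (-0.63), and Astn2, a protein of neuronal migration, 1099 and 738 (-0.58). Sulf2, a heparan sulfatase, and Ogdhl, a mitochondrial dehydrogenase, were also lower, at -0.44 and -0.23, while C1qtnf12, a secreted C1q-like protein, was higher at 0.35. Gm26917, Gm10243 and Gm11273 had log2 fold changes of -0.95, -1.92 and -1.31.

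Of the 12018 genes whose mean reached 100 normalized counts, 420 had all AS values above the control range and 389 had all below it. The largest of the differences upward was in Crabp2, a retinoic acid carrier, at 89.9 ± 22.0 and 160.5 ± 20.6 normalized counts (SD, n = 4 each; log2 fold change 0.85, padj = 0.249, limma). Prg4, the lubricin gene, followed with 0.75, then Lpl. Lyz2, the myeloid lysozyme, S100a11, Mgp, the matrix Gla protein, Ptgds, the meningeal prostaglandin D synthase, Tfpi, Hspb8 and Gm49980 had 0.53 to 0.63. Downward, after the 3 copies Gm13340, Gm13339 and Gm14303 and the noncoding Gm26917, came Syt2, a synaptotagmin of fast transmitter release, at 879 and 518 (-0.80), Kcnh5 and Kcna1, potassium channel genes, at -0.80 and -0.68, the somatostatin receptor gene Sstr4 (-0.67), the neurofilament gene Nefm at 5245 and 3308 (-0.67) and Stxbp5l. None of the genes in this paragraph other than Lpl and the 3 copies was a DEG.

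Lists of genes for cell types and pathways were then described by how many members were called and how many had an unadjusted p under 0.05 in limma. Over all genes, 5.64% were higher and 5.36% lower in AS mice at that unadjusted level. Called members were few: Lpl among 25 genes of lipid uptake and storage, and 5 of 42 ribosomal protein pseudogenes, all lower. No other of the cell type and pathway lists had a called member, so the values below describe differences that did not pass the adjusted test.

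Genes of the leptomeninges, the membranes on the cortical surface, were higher in AS mice. All 17 measured markers of leptomeningeal fibroblasts had positive log2 fold changes, with a median of 0.54, and 5 had an unadjusted p under 0.05 upward and 0 downward. Their summed normalized counts ran from 27451 to 39283 in controls and from 41962 to 55985 in AS mice, with no overlap and no marker at 0 in any of the 8 libraries. Myoc, myocilin, had means of 1126 and 1708, Aldh1a2, the retinoic acid synthesizing enzyme of the meninges, 293 and 436, and Bgn, the matrix proteoglycan biglycan, 508 ± 49.2 and 707 ± 148 (SD, n = 4 each). The median was 0.50 without mice 117 and 14, with 1 unadjusted p under 0.05. Leaving out 1 library left 0 of 17 at that level without AS mouse 40, 1 without control mouse 106 or 117 or AS mouse 8, and 9 without control mouse 109, with all 17 higher each time. S100a6 and Crabp2 were higher in the same libraries, and the part of the meninges in their values was not tested.

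Immune genes of the brain borders were higher as well. Of 6 measured genes of MHC class II, the complex that presents peptides to helper T cells, 4 had an unadjusted p under 0.05, all upward, and the median log2 fold change was 0.65. H2-Eb1, its beta chain, measured 32.4, 66.4, 57.7 and 66.9 normalized counts in controls and 103, 127, 125 and 69.96 in AS mice. The lowest AS mouse was just above the highest control (log2 fold change 0.93, padj = 0.222, limma). Cd74, the invariant chain, had means of 204 and 311. Of the 6, 2 were at that unadjusted level without mice 117 and 14, with a median of 0.54, and 2 without AS mouse 40, with a median of 0.52. The 7 measured markers of border macrophages had a median of 0.45, among them Lyve1, a hyaluronan receptor, at 33.6 ± 3.37 and 55.0 ± 6.81 (SD, n = 4 each), and Lyz2 at 187 and 291. Of the 7, 2 were at that unadjusted level with all libraries and 5 without AS mouse 44, and the median was 0.52 without mice 117 and 14. The summed counts overlapped between the groups, at 1215 to 1669 in controls and 1400.1 to 2492 in AS mice.

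Microglia, the resident macrophages of brain tissue, showed a smaller and more even shift. All 15 markers were higher in AS mice, with a median log2 fold change of 0.21 and 7 with an unadjusted p under 0.05. The summed counts did not overlap, at 13684 to 15188 in controls and 16072 to 16961 in AS mice. Tyrobp, an adaptor of microglial receptors, had means of 200.3 and 268. The median was 0.22 without mice 117 and 14, with 6 of 15 at that unadjusted level. Of 15 astrocyte markers, 14 were higher with a median of 0.15, led by Mlc1, a membrane protein of astrocyte endfeet, at 3025 ± 206 and 3611 ± 100.4, and by the water channel gene Aqp4. The astrocyte median was 0.18 without mice 117 and 14, and the number at that unadjusted level ran from 2 without control mouse 107 to 7 without AS mouse 44.

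Myelin genes lay the other way. All 15 oligodendrocyte markers had lower AS means, with a median log2 fold change of -0.47, and 8 had an unadjusted p under 0.05. Mobp, a protein of compact myelin, measured 3860.5, 3166, 3950.0 and 5809 normalized counts in controls and 2109, 3112, 2257 and 3593 in AS mice, which overlapped (log2 fold change -0.60, padj = 0.249, limma). Control mouse 117, the highest in olfactory bulb genes, was also the highest here. Myrf, the transcription factor of myelination, had means of 562 ± 113 and 405 ± 72.8 (SD, n = 4 each). Summed counts were 33372 to 52159 in controls and 22018 to 37530 in AS mice. Without mice 117 and 14 the median was -0.37 and 5 markers were at that level, and without AS mouse 8 they were -0.29 and 3. In turn, 10 markers of oligodendrocyte precursors had a median of -0.08 over the 8 libraries.

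**Figure D5:**
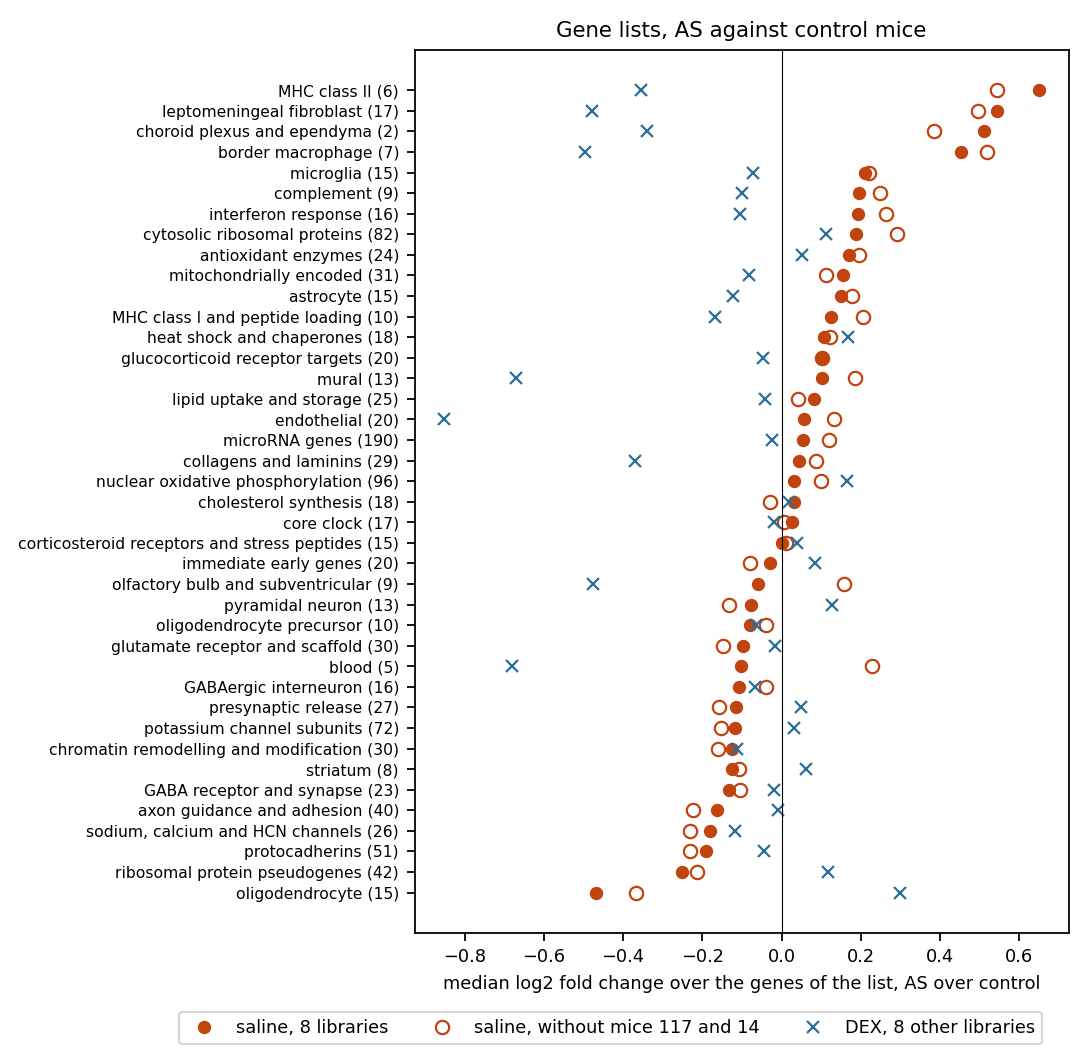
Median log2 fold change of AS over control for each gene list, with the number of measured genes in brackets, for the 8 saline libraries (filled circles), the same without mice 117 and 14 (open circles) and the 8 DEX libraries of other mice (crosses). Leptomeningeal and MHC class II lists lie at 0.54 and 0.65 on saline and at -0.48 and -0.35 on DEX, and the oligodendrocyte list at -0.47 and 0.30.

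Genes of neuronal excitability and contact were mostly lower in AS mice, by small amounts. Of 26 genes for sodium, calcium and HCN channels, 24 were lower and 9 had an unadjusted p under 0.05, all downward, with a median log2 fold change of -0.18. Scn1a, a sodium channel that is prominent in interneurons, measured 4044, 4267, 4669.6 and 3751 in controls and 2586, 3107, 3240.4 and 3059 in AS mice, without overlap (log2 fold change -0.48 ± 0.16, padj = 0.275, limma). Scn4b, a sodium channel beta subunit, had -0.65. Of 72 potassium channel genes, 15 were lower and 5 higher at that unadjusted level. Kcnip2, an auxiliary subunit, was among the higher, at 0.27. These numbers were 21 and 2 without mice 117 and 14, and 8 and 6 without AS mouse 44. The summed counts of the sodium, calcium and HCN list overlapped, at 122977 to 140292 in controls and 107266 to 125612 in AS mice. AS mouse 44 was the lowest, and without it the median was -0.11 with 5 of 26 at that level. Lower values were not confined to the neuronal lists. Of 30 genes of chromatin remodeling and modification, 26 were lower, with a median of -0.12, and 5 were lower and 1 higher at that level. Without AS mouse 44 the chromatin median was -0.02, with 0 at that level in either direction.

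Of 40 genes of axon guidance and adhesion, 38 were lower, with a median log2 fold change of -0.16 and 7 at an unadjusted p under 0.05. Nfasc, the neurofascin of nodes and axon initial segments, had means of 8033 ± 512 and 6459 ± 722 normalized counts (SD, n = 4 each; log2 fold change -0.32, padj = 0.231, limma), and Nrcam, its partner, was at -0.28. Of 51 protocadherin genes, 45 were lower, 11 at that level, with a median of -0.19. Members of the clustered protocadherins share constant exons, so their single values are uncertain. AS mouse 44 was the lowest, with a summed count of 35665 against 44490.5 to 47449 in the other AS mice and 45490 to 52519 in controls. Without it the median was -0.11, with 3 of 51 at that level, and without mice 117 and 14 it was -0.23, with 13. Of 27 genes of presynaptic release, 21 were lower and 5 at that level, including Cplx1, the complexin of fast release (-0.34), beside Syt2. Genes for glutamate receptors and scaffolds, counting Grik2 under its 2 identifiers, had 27 of 30 lower and 3 at that level, which is 10% of them against 5.36% of all genes. Without mice 117 and 14, the number lower at that level was 11 of 26 for the sodium, calcium and HCN channels, 14 of 40 for guidance and adhesion, 11 of 27 for presynaptic release and 2 of 30 for the glutamate list. Without AS mouse 44 it was 3 of 40 for guidance and adhesion, where 2 were then higher at that level, 3 of 27 for presynaptic release and 2 of 30 for the glutamate list, whose median moved from -0.10 to -0.05. Guidance and adhesion also had 3 of 40 without control mouse 109.

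Ribosomal protein genes themselves were mostly higher in AS mice, while more of their pseudogenes were lower. Of 82 genes for cytosolic ribosomal proteins, 80 were higher in AS mice, 26 with an unadjusted p under 0.05 and none lower, and the median log2 fold change was 0.19. Rplp2, of the ribosomal stalk, measured 1547, 1425, 1434 and 1759 in controls and 2382, 1993, 1852 and 2278 in AS mice, without overlap (log2 fold change 0.46 ± 0.13, padj = 0.230, limma). Rps27a, a fusion of ubiquitin and a ribosomal protein, had means of 2231 and 3018. Without mice 117 and 14, 48 of 82 were higher at that level, with a median of 0.29, and without AS mouse 44 the values were 10 of 82 and 0.13. Without control mouse 107 or 109, 12 and 13 of 82 were at that level. The 42 ribosomal protein pseudogenes had a median of -0.25, with 14 lower and 1 higher at that level. That median was -0.12 without control mouse 109 and -0.11 without AS mouse 40, and among the 4 pseudogenes whose mean reached 100 normalized counts it turned to 0.17. The higher one was Rpl17-ps10, at 178 and 259 (log2 fold change 0.51).

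Of 24 genes for antioxidant enzymes, 22 were higher, 6 at an unadjusted p under 0.05, and the median log2 fold change was 0.17. At that level were 10 without mice 117 and 14, with a median of 0.20. Prdx1 and Prdx6, both peroxiredoxins that remove peroxides, had 1982 ± 68.3 and 2416 ± 354 and 4159 ± 318 and 4955 ± 429 normalized counts in controls and AS mice (SD, n = 4 each). Among the lipid genes besides Lpl, the apolipoprotein gene Apoe was higher (0.31) and the cholesterol exporter gene Abcg1 lower (-0.20), neither called. The lists of endothelial, core clock and cholesterol synthesis genes had 0 members at that unadjusted level in either direction.

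Readouts of stress hormone signaling did not pass the test between AS and control mice on saline. Fkbp5, the receptor co-chaperone that glucocorticoids induce, measured 774, 761, 888 and 762 normalized counts in controls and 819.5, 774, 878 and 1088 in AS mice, and the groups overlapped (log2 fold change 0.15 ± 0.11, padj = 0.604, limma). DEX controls reached a mean of 3820. Nr3c1, the glucocorticoid receptor gene, had 3112 ± 227 and 2859 ± 136 (SD, n = 4 each; -0.12, padj = 0.662, limma), and Nr3c2, the mineralocorticoid receptor gene, 1121 and 1074. Tsc22d3, Sgk1, Crh, Bdnf, Fos and Arc had log2 fold changes between -0.11 and 0.12. Of 20 glucocorticoid receptor targets, 1 was at an unadjusted p under 0.05. This was Plin4, a lipid droplet protein, at 85.2 ± 56.4 and 51.9 ± 26.0 (SD, n = 4 each), with control mouse 109 at 169.7. Of 15 genes for receptors and stress peptides, none was at that level.

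AS mice were compared with PS mice on saline to ask whether any value was particular to the active phenotype. No gene was called by limma or by edgeR at padj under 0.1, while 11 were called by DESeq2, and 671 genes had an unadjusted p under 0.05 in limma. For 19 of the 22 DEGs the 95% interval of AS minus PS included 0. The others were Gm8129, Rpl35a-ps2 and Gm14303, at 0.47, 0.73 and 0.92 higher in AS than in PS mice. These comparisons use the same 4 AS libraries as the calls. In the fit without mice 117 and 14, 0 genes were called between AS and PS mice by limma and 730 had an unadjusted p under 0.05. The intervals for Lpl and Kctd4 given above include differences as large as 0.32 and -0.19, and do not show that the phenotypes were alike. PS mice had 213 DEGs among the 14074 genes against the same saline controls in limma, and 19 of the 22 were among them. The 22 were called by their distance from these same 4 control libraries, so this overlap is a description and not independent agreement. List medians in PS mice were 0.40 for leptomeningeal, 0.41 for MHC class II, 0.16 for microglia and 0.18 for ribosomal protein genes. The oligodendrocyte list had -0.18 and the sodium, calcium and HCN list -0.12. These had the sign seen in AS mice. The endothelial, mural (vessel wall), blood, core clock, glucocorticoid receptor target and stress peptide lists had the other sign. Their PS medians were small, from -0.04 to 0.10. Both sets of medians are differences from the same 4 saline control libraries, so a shared sign is a description.

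The same contrast in other mice, AS against control on DEX, shares no library with the saline comparison. It gave 122 DEGs in limma, 15 higher (0.107% of genes) and 107 lower (0.76%). None of the 22 saline DEGs was among them, and 7 of the 22 had the same sign, 4 of the rises and 3 of the falls. Over all genes, 7064 of 14074 were higher in AS mice on DEX. The count of 122 became 0 with library size as a covariate and ran from 3 to 403 with 1 library left out. Lpl measured 368, 249, 247 and 280.0 normalized counts in DEX controls and 259, 356, 332 and 358 in AS mice on DEX, which overlapped (log2 fold change 0.20, padj = 0.477, limma). The copies had low values in DEX controls already: Rpl34-ps1 averaged 7.01 there and 13.7 in AS mice on DEX. Median log2 fold changes on DEX were -0.48 for the leptomeningeal list, with 0 of 17 genes higher, and 0.30 for the oligodendrocyte list, with all 15 higher. Ribosomal protein genes had the same direction in both contrasts, at 0.11 on DEX with 81 of 82 higher. Endothelial genes, at 0.06 on saline, had a median of -0.85 on DEX with none of 20 higher.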

How the data were processed

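Gene expression in the PFC was measured by RNA-seq in 24 mice, 4 in each of 6 groups taken from the labels, with 1 library per mouse. Per the labels and the study's methods, the authors made strand-specific poly(A) libraries from RNA with an integrity number over 8.0, trimmed paired-end reads with fastp 0.20.1, aligned them to mm10 (GRCm38) with HISAT2 2.2.1 and counted them per gene with featureCounts (Subread 2.0). The handling of multiply mapped reads and the strand setting of the counting are not given in the sources used here. The deposited values are a signal, gene counts that the authors divided by a size factor per library (DESeq2 1.36.0 is named in the submitters' processing notes), and they are called normalized counts here. Every value was a whole multiple of what 1 read is worth in its library, within 0.01 of a read (100% of values), so the reads and the depth of each library could be recovered. How much the number of mice and the depth each limit the precision was not tested.

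From these, log2(normalized count + 1) was fitted for 14074 genes in all 24 libraries with 1 mean per group (limma 3.58.1 in R 4.3.3, empirical Bayes with a trend). All tests were two-sided, with Benjamini-Hochberg adjustment over all genes and a call at padj under 0.1. Fold changes on this scale understate the change of low genes. Rpl34-ps1 and the other copies were matched to GENCODE transcripts of protein-coding and mitochondrial genes on GRCm38 with blastn 2.17.0. On simulated counts with 200 changed genes out of 14074 in the AS and control saline comparison, limma recovered 80.6% of 1.5-fold, 98.5% of 2-fold and all 4-fold changes, and 5.58% of its calls were false. The changed genes left out the lowest genes, and only the AS saline libraries were shifted. Genes were drawn independently, without differences of tissue between libraries. These shares may therefore not hold for the low copies or for the real libraries.

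Named genes were every DEG, the 10 that follow by p, the 10 largest non-overlapping differences each way among genes whose mean reached 100 normalized counts, 4 members of each list by level and p, and 9 readouts of stress hormones and activity. Other members of lists are named as examples of their counts. The members and lists were chosen with earlier results of these data known. Alternatives were a pseudocount of 8, filters on low values, quantile normalization, the compared groups alone, library size as a covariate, edgeR 4.0.16 and DESeq2 1.42.0 on the recovered reads, thinned reads, and each library left out. Fits without both libraries high in olfactory bulb genes, robust moderation, limma on thinned reads and protein-coding genes alone were chosen after seeing the data. The 12 pairs of replicates within the AS and control saline groups differed beyond sampling noise, so all were counted. Values of some list members are not reported here.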

Additional observations from a re-analysis of the deposited data

Results flagged for a closer look

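The difference between AS and control mice was not the same on DEX as on saline for 12 of the 22 saline DEGs, by the interaction in limma at padj under 0.1. Over all genes, 0.185% passed this test upward and 0.163% downward. These 12 genes were called by their saline difference, which the interaction contains, so their values are a description. On the log2 scale, the DEX difference minus the saline difference was 2.42 for Gm13340, 3.17 for Rpl34-ps1, 1.94 for Gm8129 and 1.69 for Rpl35a-ps2. It was 3.196 for Rpl19-ps7, 3.40 for Rpl17-ps8, 3.12 for Gm13339 and 2.19 for Rps27rt. Gm8730, Rpl36-ps2 and Gm11942 had 1.77, 3.21 and 2.79. Etnk2 was the exception in sign, at -0.65.

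Some single libraries lay far from the rest of their group of 4 by Dixon's test, which flags about 1 in 20 groups by chance. With 22 DEGs looked at, some such flags are expected by chance. AS mouse 44 was the high one in Gm8129, at 42.9 normalized counts against 23.6 to 26.1 in the other AS mice, and in Gm6472, at 45.5. AS mouse 14, one of the libraries high in olfactory bulb genes, was the low one in S100a6, at 379 against 466 to 478.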

How the results depend on the processing

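No paired analysis was possible because mouse numbers do not recur between groups. Of the values of the 22 DEGs under the alternatives, 596 kept their direction and their call, 181 kept the direction only and 0 reversed. Many of these fits could not change a direction. Leaving out a PS or DEX library, filtering genes, robust moderation or using the compared groups alone leaves the AS and control saline means as they were. The absence of reversals there is thus no test. Gm13340, Rpl34-ps1, Gm8129, Rpl35a-ps2 and Rpl19-ps7 were called under every alternative that tested them, 34 to 36 of 37. The fit on protein-coding genes left all 5 out, and 1 or both filters on low values left out all but Gm13340. The 22 DEGs between AS and control mice on saline became 5 when the mean had to reach 100 normalized counts, 9 with at least 10 reads in every library, 99 with DESeq2, 7 without mice 117 and 14 and 3 among protein-coding genes alone. Leaving out each library gave 12 to 49, the ends being control mouse 109 and AS mouse 40 on saline (12 each) and control mouse 101 on DEX (49). AS against PS had 0 DEGs, 11 with DESeq2 and 0 to 5 with a library left out (5 without AS mouse 44). AS against control on DEX had 122 DEGs, 0 with library size as a covariate and 417 with DESeq2. Leaving out each library there gave 3 (control mice 101 or 122 on DEX) to 403 (control mouse 112 on DEX), so that count rests on single libraries. The cause of these shifts was not tested. On the simulated counts, 16.7% of the calls of DESeq2 were false, and the share among its calls on the real libraries is not known. With reads thinned to equal depth, Gm6472, Gm25982, Rpl36-ps2, Gm11942 and Sat1 lost their calls and kept their direction. Of the list medians, 13 moved by more than the spread between replicates and 1608 did not.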
